A study of Homo sapiens with 8 samples.

Results

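The genes described here handle iron and the electrons used to build iron-sulfur clusters, and they were followed in CHP212 cells, a human neuroblastoma cell line. They are FDXR, FDX1, ISCU, STEAP3, TFRC, SLC11A2, FTH1, FTL, ACO1 and IREB2, taken by symbol from the deposited table of read counts and the matching table of RPKM (reads scaled to gene length and library depth). They make up 10 of the 25369 genes listed, and all 10 were among the 15879 genes with enough reads to be tested. Poly(A) RNA was sequenced from unmodified cells (WT) and from cells with FAM193A knocked out (KO). Each genotype was exposed for 12 h to Nutlin-3a at 10 uM, which keeps MDM2 from binding p53 and so stabilises p53, or to DMSO at 0.2% as the vehicle. The 4 groups held 2 independent biological replicates each, giving 8 libraries. The labels name a single KO population, so the effect of losing FAM193A cannot be told apart from any other property of that population.

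Cells take up iron by endocytosis of transferrin bound to its receptor, TFRC. In the endosome STEAP3 reduces the iron and SLC11A2 carries it into the cytosol. Iron is then used in mitochondria or stored in ferritin, a shell of FTH1 and FTL chains. In mitochondria FDXR passes electrons from NADPH to ferredoxins such as FDX1, which feed steroid hydroxylases and the assembly of iron-sulfur clusters on the scaffold ISCU. ACO1 and IREB2 are the iron regulatory proteins: when iron is scarce they bind stem-loops called iron-responsive elements, which blocks translation of ferritin mRNA and protects TFRC mRNA from decay. FDXR is a known p53 target gene.

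Libraries held 28390405 to 38010075 reads. Levels within a gene are given as CPM, the read count scaled to TMM-adjusted library size, and fold changes are log2 values fitted to the counts with edgeR's quasi-likelihood test. All p values were adjusted by the Benjamini-Hochberg method across the tested genes, and a gene is said to rise or fall only where the adjusted p was under 0.05. FAM193A was at 44.1 and 40.0 CPM in WT and 34.8 and 32.2 CPM in KO cells under DMSO, a log2 difference of -0.33 (SE 0.08, adjusted p = 0.000999), so its RNA was still present in the knockout. The altered part of the gene is not given in the sources used here. CDKN1A and MDM2, classical p53 targets, rose in both genotypes, CDKN1A by 5.39 in WT and 5.12 in KO cells and MDM2 by 4.61 and 3.38. Adrenergic neuroblastoma markers summed to 3295 to 4989 CPM over 12 genes, with MYCN the most abundant at 1898 to 3382 CPM. TH, one of those markers, was at 228 to 480 CPM in WT and 9.70 to 12.9 CPM in KO libraries. Mesenchymal markers (8 genes) summed to 1939 to 2654 CPM. Markers of erythroid cells (8 genes), which also handle much iron, summed to 6.92 to 11.8 CPM, with HBA2, HBG1, HBG2 and KLF1 at no more than 5 reads in any library. Macrophage markers (6 genes) summed to 10.1 to 16.7 CPM, hepatocyte markers (5 genes, with TTR and APOB at no more than 5 reads) to 0.493 to 1.28, epithelial markers (4 genes) to 1.95 to 13.6 and endothelial markers (4 genes) to 2.89 to 7.74. Among the DMSO libraries WT replicate 2 stood apart, and among those of Nutlin-3a WT replicate 1 and KO replicate 2 did, with 22, 44 and 18 genes of at least 20 reads more than 10-fold above the other replicate. Those genes took 0.00818% of a library's reads or less. Without these 3 libraries, the WT response was 4.77 for FDXR, 1.54 for ISCU, 1.40 for STEAP3 and -0.56 for TFRC, and the KO response was 4.38, 0.90, 1.62 and -0.18 for the same genes.

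Of the 10 genes, FDXR responded most to Nutlin-3a. Its reads numbered 915 and 810 in WT cells under DMSO and 24779 and 22376 under Nutlin-3a. In KO cells they numbered 883 and 980 under DMSO and 19101 and 16574 under Nutlin-3a. Scaled for depth, FDXR was at 30.1 and 28.4 CPM against 817 and 804 CPM in WT cells, and at 24.7 and 25.4 CPM against 519 and 498 CPM in KO cells. No DMSO library came near any Nutlin-3a library, and under either treatment both KO libraries lay below both WT libraries. FDXR rose 27.7-fold in WT cells (log2 4.79, SE 0.06, adjusted p = 6.32e-21) and 20.3-fold in KO cells (log2 4.34, SE 0.06, adjusted p = 3.59e-20). By fold change it was number 139 from the top of the 15879 tested genes in WT cells and number 120 in KO cells. Among all listed genes ordered by RPKM it moved from places 5625 and 5817 to 169 and 160 in WT cells, and from 6423 and 6322 to 237 and 252 in KO cells. In these bulk samples, fewer cells with a transcript and less of it per cell cannot be told apart.

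The rise of FDXR was smaller in KO cells. The KO response minus the WT response was -0.45 on the log2 scale (SE 0.07, 95% confidence interval -0.61 to -0.29, adjusted p = 0.000178). Under Nutlin-3a KO cells held 1.59-fold less FDXR than WT cells (log2 -0.67, SE 0.05, adjusted p = 2.63e-10). Under DMSO the difference was also downward but smaller (log2 -0.22, SE 0.06, adjusted p = 0.00307). This last difference missed the threshold when WT DMSO replicate 1 was left out (log2 -0.18, adjusted p = 0.0582).

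The promoter of FDXR is shown because a p53 half-site lies next to the transcription start. The p53 half-site consensus is a string of 10 bases, searched on both strands with no mismatch. The sequence is from RefSeq on GRCh38.p14 and covers the 250 bases before the FDXR start, chr17:74872995-74873244 on the minus strand, with the half-site in capitals.
FDXR promoter: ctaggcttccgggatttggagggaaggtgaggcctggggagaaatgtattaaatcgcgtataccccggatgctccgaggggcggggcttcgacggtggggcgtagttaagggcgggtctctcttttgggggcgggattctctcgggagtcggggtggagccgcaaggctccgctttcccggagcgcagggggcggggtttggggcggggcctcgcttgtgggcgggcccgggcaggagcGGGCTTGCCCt
The half-site spans positions -11 to -2 relative to the start. In 300-base promoter windows (250 bases before to 50 after each start), 4 of the 14 windows of the 10 genes held a half-site, in FDXR, ISCU and SLC11A2 (in 2 of its windows). Over the whole table, 2329 of 35116 windows did, or 6.63%. The ISCU match starts at position -198. The STEAP3 window held no match, and FTH1 had no window in the table. A pair of half-sites 0 to 13 bases apart, as in a complete p53 element, was in 10 of all windows (0.0285%) and in 0 of the 14. A match is only a match of letters. As no mismatch was allowed, its absence says nothing about elements with mismatches in these windows, or about p53 elsewhere in the gene.

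FDXR lies at chr17:74862497-74872994 (GRCh38.p14, minus strand) between GRIN2C and FADS6, which are on the same strand. GRIN2C, which encodes a subunit of NMDA glutamate receptors, begins 964 bases beyond the end of FDXR. It had 3 and 4 reads in WT and 1 and 2 reads in KO libraries under DMSO, and 258 and 300 in WT and 186 and 166 in KO libraries under Nutlin-3a. It therefore rose with FDXR in both genotypes (adjusted p = 1.14e-12 in WT and 2.23e-11 in KO cells), and its few reads under DMSO give no usable fold. GRIN2C reads as a share of the reads of both genes were 0.964% (95% Wilson interval 0.836% to 1.11%) in KO Nutlin-3a replicate 1 and 1.32% (1.18% to 1.48%) in WT Nutlin-3a replicate 2, the lowest and highest under Nutlin-3a. Under DMSO the share ran from 0.113% (0.0200% to 0.638%) in KO replicate 1 to 0.491% (0.191% to 1.26%) in WT replicate 2. These intervals cover counting error only. Whether any of these reads belong to FDXR transcripts was not tested. FADS6, 1792 bases from FDXR on the other side, had 0 to 2 reads in every library and was not tested.

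FDX1, the ferredoxin that takes electrons from FDXR, differed between genotypes, and neither of its responses to Nutlin-3a passed the threshold with all 8 libraries. It was at 28.5 and 30.5 CPM in WT cells under DMSO and 32.1 and 33.1 under Nutlin-3a. In KO cells it was at 16.5 and 18.0 CPM under DMSO and 16.8 and 18.8 under Nutlin-3a. All 4 KO libraries lay below all 4 WT libraries, while the KO treatments overlapped. FDX1 was lower in KO cells by 1.71-fold under DMSO (log2 -0.78, SE 0.08, adjusted p = 1.19e-07) and by 1.83-fold under Nutlin-3a (log2 -0.87, SE 0.08, adjusted p = 1.95e-08). Its response to Nutlin-3a was 0.14 (95% confidence interval -0.02 to 0.30, adjusted p = 0.122) in WT and 0.04 (-0.13 to 0.22, adjusted p = 0.719) in KO cells. Without the 3 libraries that stood apart, which left a lone library in each of their groups, the WT value was 0.24. The 2 responses differed by -0.10 (95% confidence interval -0.34 to 0.14, adjusted p = 0.562).

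The balance between reductase and ferredoxin mRNA therefore moved with FDXR. Per length, FDXR stood at 1.35 and 1.20 times the RPKM of FDX1 in WT cells under DMSO and at 32.7 and 31.2 times under Nutlin-3a. In KO cells the ratio was 1.92 and 1.82 under DMSO and 39.8 and 34.0 under Nutlin-3a. Both KO libraries had the higher ratio under either treatment, although FDXR itself was lower in KO cells.

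ISCU, the scaffold of iron-sulfur cluster assembly, rose with Nutlin-3a and rose less in KO cells. It was at 83.5 and 86.1 CPM in WT cells under DMSO and 258 and 239 under Nutlin-3a. In KO cells it was at 88.4 and 84.4 CPM under DMSO and 159 and 172 under Nutlin-3a. The DMSO libraries of both genotypes overlapped, and the Nutlin-3a libraries of KO cells fell between them and those of WT cells. ISCU rose 2.93-fold in WT cells (log2 1.55, SE 0.05, adjusted p = 1.94e-14) and 1.92-fold in KO cells (log2 0.94, SE 0.05, adjusted p = 6.22e-11). The difference of responses was -0.61 (SE 0.08, adjusted p = 7.60e-06), larger in size than that of FDXR, although the difference between these 2 values was not itself tested. Under DMSO the genotypes differed by 0.03 (95% confidence interval -0.09 to 0.14, adjusted p = 0.698), and under Nutlin-3a ISCU was lower in KO cells (log2 -0.59, SE 0.05, adjusted p = 1.18e-08).

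STEAP3, the ferrireductase of the endosome, also rose in both genotypes. It was at 47.0 and 43.1 CPM in WT cells under DMSO and 126 and 122 under Nutlin-3a. In KO cells it was at 28.1 and 31.0 CPM under DMSO and 90.4 and 92.3 under Nutlin-3a. KO libraries were below WT libraries in each treatment, without overlap. STEAP3 rose 2.76-fold in WT cells (log2 1.46, SE 0.06, adjusted p = 1.31e-13) and 3.09-fold in KO cells (log2 1.63, SE 0.06, adjusted p = 1.25e-13), and the responses differed by 0.16 (95% confidence interval -0.01 to 0.34, adjusted p = 0.162). That difference ran from 0.09 without KO DMSO replicate 1 to 0.24 without KO DMSO replicate 2, and it was 0.22 without the 3 libraries that stood apart. STEAP3 was lower in KO cells under DMSO (log2 -0.61, SE 0.06, adjusted p = 1.26e-07) and under Nutlin-3a (log2 -0.44, SE 0.05, adjusted p = 1.16e-06).

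**Figure D1:**
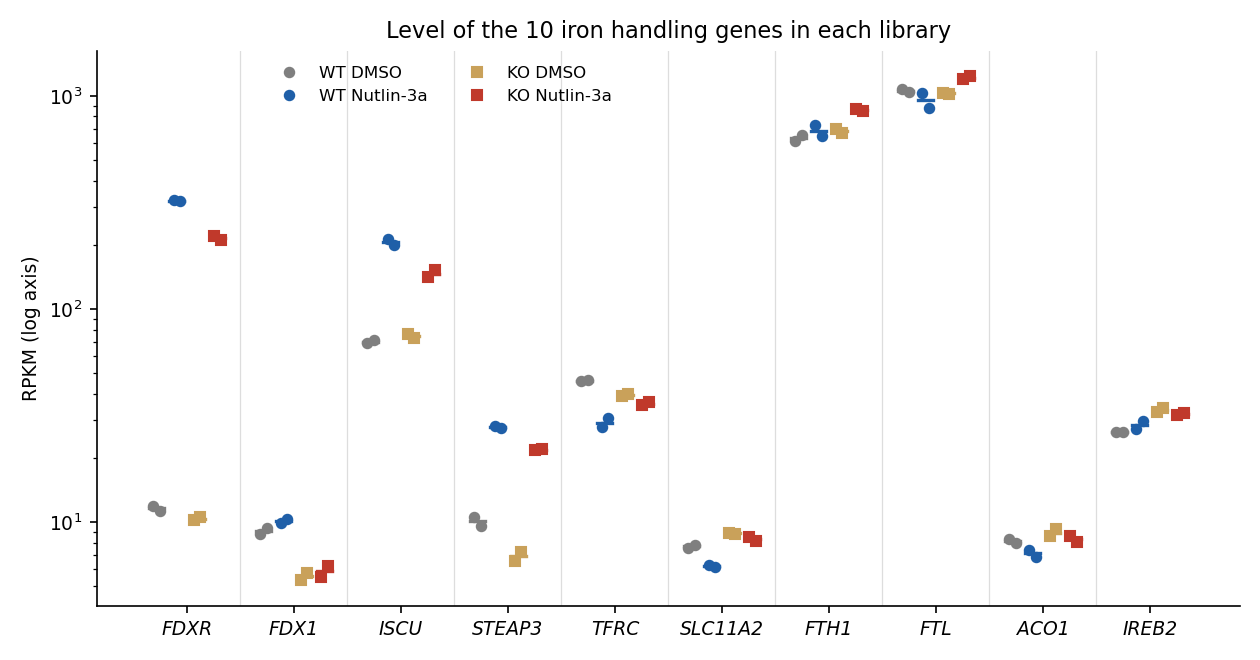
Level of each of the 10 genes as RPKM on a log axis, with 1 point per library, circles for WT, squares for KO and a short line at the mean of each pair. FDXR climbs from between 10.2 and 11.9 under DMSO to between 210 and 323 under Nutlin-3a, while FTH1 and FTL stay the most abundant genes at 616 or more in every library.

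TFRC, the transferrin receptor, moved the opposite way to STEAP3 and most strongly in WT cells. It was at 248 and 253 CPM in WT cells under DMSO and 152 and 166 under Nutlin-3a. In KO cells it was at 203 and 209 CPM under DMSO and 180 and 186 under Nutlin-3a. The highest values were those of WT cells under DMSO and the lowest those of WT cells under Nutlin-3a, with all 4 KO libraries between them. TFRC fell by 0.66 in WT cells (SE 0.05, adjusted p = 1.37e-09) and by 0.17 in KO cells (SE 0.05, adjusted p = 0.00959), on the log2 scale. The difference of responses was 0.49 (SE 0.07, adjusted p = 3.78e-05), and the order of the genotypes turned with treatment, from -0.28 for KO against WT under DMSO (SE 0.05, adjusted p = 6.21e-05) to 0.21 under Nutlin-3a (SE 0.05, adjusted p = 0.00138). The small KO fall missed the threshold without KO DMSO replicate 2 (log2 -0.15, adjusted p = 0.114), without KO Nutlin-3a replicate 1 (log2 -0.14, adjusted p = 0.114) and with limma-trend on the RPKM values. Without the 3 libraries that stood apart, the value for KO against WT under Nutlin-3a was 0.11, and it was 0.14 without WT Nutlin-3a replicate 1 alone.

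SLC11A2, which exports iron from the endosome, fell in WT cells. It was at 52.9 and 54.6 CPM in WT cells under DMSO and 44.0 and 42.6 under Nutlin-3a, and in KO cells at 59.3 and 59.1 CPM under DMSO and 55.3 and 53.7 under Nutlin-3a. The groups compared did not overlap. The WT change was -0.31 (SE 0.06, adjusted p = 8.37e-05), the KO value was -0.12 (SE 0.05, adjusted p = 0.0816), and the difference of responses was 0.19 (95% confidence interval 0.03 to 0.35, adjusted p = 0.0681). The KO value passed without WT Nutlin-3a replicate 2 (-0.12, adjusted p = 0.0331), and the difference passed without WT Nutlin-3a replicate 1 (0.21, adjusted p = 0.0366). SLC11A2 was higher in KO cells under Nutlin-3a (log2 0.33, SE 0.05, adjusted p = 3.42e-05). Under DMSO it was higher by 0.14 (SE 0.05, adjusted p = 0.0299). That difference no longer passed with DESeq2's size factors, with its Wald test and when any of the 4 DMSO libraries was left out.

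The ferritin chains were the most abundant of the 10 genes, and they rose modestly in KO cells. FTH1, the chain that oxidises iron, was at 777 and 832 CPM in WT cells under DMSO and 920 and 809 under Nutlin-3a, and in KO cells at 844 and 807 CPM under DMSO and 1019 and 1006 under Nutlin-3a. The WT treatments overlapped, and both KO libraries under Nutlin-3a lay above the other 6. FTH1 rose in KO cells by 0.29 (SE 0.06, adjusted p = 0.000449), and the WT value was 0.10 (SE 0.06, 95% confidence interval -0.02 to 0.22, adjusted p = 0.131). In WT cells the call depended on a single library, since without WT Nutlin-3a replicate 2 the value was 0.19 and passed the threshold (adjusted p = 0.000245). The responses of FTH1 in the 2 genotypes differed by 0.19 (95% confidence interval 0.02 to 0.36, adjusted p = 0.0909). That call too changed with a single library, to 0.28 (adjusted p = 0.000159) without WT Nutlin-3a replicate 1. Under Nutlin-3a FTH1 was higher in KO than in WT cells (log2 0.23, SE 0.06, adjusted p = 0.00203), by 0.14 without WT Nutlin-3a replicate 2 (adjusted p = 0.00623).

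FTL, the light chain, was at 959 and 938 CPM in WT cells under DMSO and 922 and 779 under Nutlin-3a, and in KO cells at 881 and 879 CPM under DMSO and 997 and 1044 under Nutlin-3a. The WT Nutlin-3a replicates lay far apart, and no pair of groups within a genotype overlapped. FTL fell by 0.16 in WT cells (SE 0.06, adjusted p = 0.0393) and rose by 0.21 in KO cells (SE 0.06, adjusted p = 0.0119), with a difference of responses of 0.37 (SE 0.09, adjusted p = 0.00475). The WT fall is weakly based: the call was lost in 12 of 18 other settings, and without WT Nutlin-3a replicate 2 the value was -0.04 (adjusted p = 0.391). It was -0.26 without WT Nutlin-3a replicate 1 (adjusted p = 2.20e-06) and -0.27 without the 3 libraries that stood apart. The call was also lost without WT DMSO replicate 1 (-0.12, adjusted p = 0.264), without WT DMSO replicate 2 (-0.18, adjusted p = 0.0957) and without any 1 of the KO libraries. The KO rise was lost without KO DMSO replicate 1, KO DMSO replicate 2 or KO Nutlin-3a replicate 2, where adjusted p was 0.0792, 0.0871 and 0.117. FTL was higher in KO than in WT cells under Nutlin-3a (log2 0.26, SE 0.06, adjusted p = 0.00151), by 0.15 without WT Nutlin-3a replicate 2 (adjusted p = 0.00275). Ferritin has many processed pseudogenes, and how reads that fit several places were counted is not given in the sources used here. The pseudogenes FTH1P3, FTH1P18 and FTLP10 were listed with at most 15 reads in any library.

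Per length, the chains kept an FTH1 to FTL ratio below 1 in every library. The RPKM ratio was 0.574 and 0.629 in WT cells under DMSO, 0.707 and 0.736 in WT cells under Nutlin-3a, 0.679 and 0.650 in KO cells under DMSO and 0.724 and 0.683 in KO cells under Nutlin-3a. The ratio of receptor to ferritin, TFRC over FTH1, was 0.0742 and 0.0705 in WT cells under DMSO against 0.0382 and 0.0476 under Nutlin-3a. In KO cells it was 0.0558 and 0.0601 against 0.0410 and 0.0429. Both treated libraries were below both DMSO libraries in each genotype.

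Matches to a pattern of the iron-responsive element are shown because ACO1 and IREB2 bind such elements. Transcripts of GENCODE 29 (GRCh38) were searched on the sense strand for a bulged C, 5 paired bases (G-T pairs allowed), a loop reading CAGTGN and the pairing 5 bases. Each sequence is 27 bases long with the 6 bases of the loop in capitals. The matches in FTH1 and FTL lie in the 5' UTR, and the 4 in TFRC lie in the 3' UTR. Elements that depart from this pattern were not searched for, so these need not be all that the mRNAs carry.
FTH1 (chr11:61967575-61967601, minus strand): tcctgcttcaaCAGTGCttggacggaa
FTL (chr19:48965336-48965362, plus strand): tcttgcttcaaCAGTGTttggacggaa
TFRC, the first site (chr3:196050980-196051006, minus strand): attatcggaagCAGTGCcttccataat
TFRC, the second site (chr3:196050576-196050602, minus strand): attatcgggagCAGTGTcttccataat
TFRC, the third site (chr3:196050511-196050537, minus strand): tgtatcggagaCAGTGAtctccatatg
TFRC, the fourth site (chr3:196050464-196050490, minus strand): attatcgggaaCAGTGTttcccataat
The search fixed the loop up to its last base, so the shared loop is no finding. The pattern matched in none of the other 7 genes, which says only that these letters are not in their transcripts and not that they lack an element. It matched somewhere in the transcripts of 291 of 19669 protein-coding genes (1.48%), and within the first 100 bases in 26 (0.132%). Reads give mRNA level and not translation, so control of ferritin through these elements is not measured here.

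ACO1, which is also the cytosolic aconitase, was at 30.9 and 29.8 CPM in WT cells under DMSO and 27.6 and 25.2 under Nutlin-3a, and in KO cells at 30.7 and 32.9 CPM under DMSO and 29.9 and 28.1 under Nutlin-3a. The treatments did not overlap within a genotype, whereas the genotypes overlapped under DMSO. ACO1 fell by 0.20 in WT cells (SE 0.07, adjusted p = 0.0253), and the KO value was -0.13 (SE 0.07, adjusted p = 0.148). The WT fall missed the threshold with DESeq2's Wald test. It also did so when a WT library was left out, at -0.15 without replicate 1 of DMSO (adjusted p = 0.188), at -0.23 without replicate 2 of DMSO (adjusted p = 0.0503) and at -0.14 without replicate 2 of Nutlin-3a (adjusted p = 0.145). The difference of responses was 0.07 (95% confidence interval -0.14 to 0.28, adjusted p = 0.668).

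IREB2, the iron regulatory protein without enzyme activity, was higher in KO cells under DMSO. It was at 172 and 174 CPM in WT cells under DMSO and 179 and 193 under Nutlin-3a, and in KO cells at 206 and 215 CPM under DMSO and 195 and 200 under Nutlin-3a. All KO libraries lay above all WT libraries. The genotypes differed by 0.28 under DMSO (SE 0.05, adjusted p = 5.45e-05) and by 0.09 under Nutlin-3a (95% confidence interval -0.01 to 0.19, adjusted p = 0.113). The latter ranged from 0.03 to 0.14 with 1 library left out and passed without WT Nutlin-3a replicate 2 (0.14, adjusted p = 0.00510), with upper-quartile factors (0.13) and with limma-trend on the RPKM values (0.17 to 0.18). It was 0.0015 without the 3 libraries that stood apart. Neither response passed the test, with values of 0.10 in WT (adjusted p = 0.0850) and -0.09 in KO cells (adjusted p = 0.138). Both calls turned with a single library: the WT value was 0.18 (adjusted p = 0.000922) without WT Nutlin-3a replicate 1, and the KO value was -0.10 (adjusted p = 0.0258) without WT Nutlin-3a replicate 2. Without the 3 libraries that stood apart the values were 0.19 and -0.10, and the WT value passed with upper-quartile factors, at 0.13. The difference of responses was -0.19 (SE 0.07, adjusted p = 0.0423), but it missed the threshold in 12 of 17 other settings, among them the omission of any 1 library except WT Nutlin-3a replicate 1. Per length, IREB2 stood at 3.16 to 4.34 times ACO1 in the 8 libraries.

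**Figure D2:**
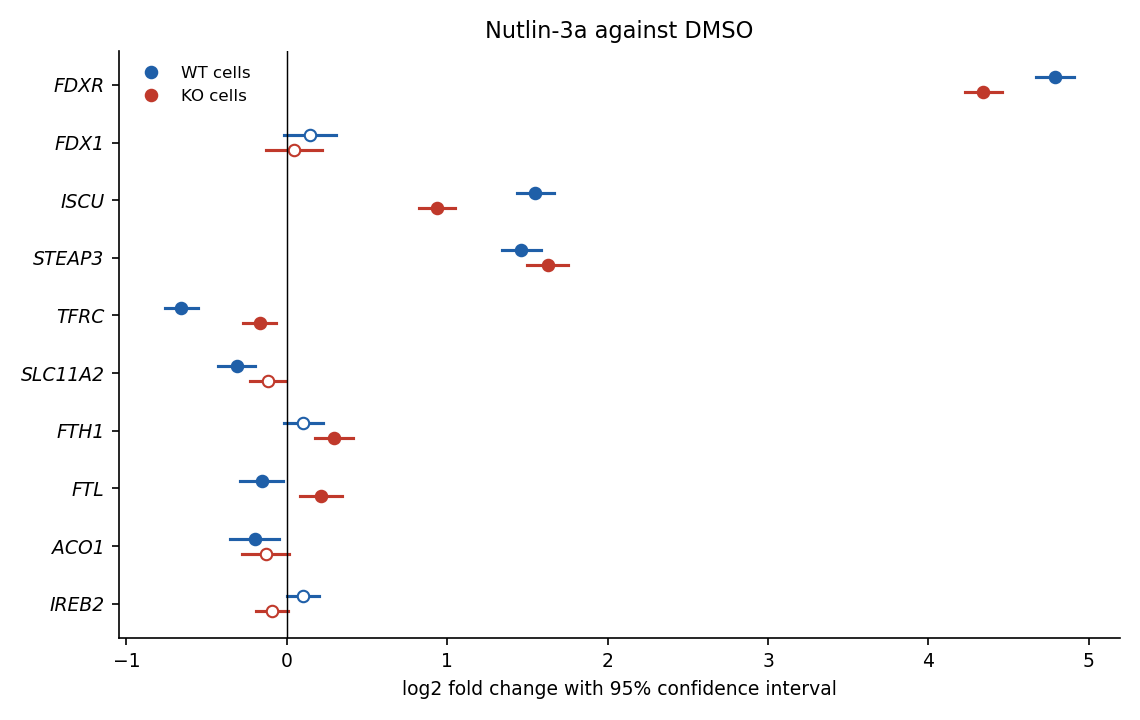
Fitted log2 fold change of Nutlin-3a against DMSO for each gene with its 95% confidence interval, in WT (blue) and KO (red) cells, filled where the adjusted p was under 0.05. FDXR, ISCU and STEAP3 lie far to the right in both genotypes, and TFRC lies at -0.66 in WT and -0.17 in KO cells.

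By level per length the 10 genes kept much of their order. In WT cells under DMSO the RPKM ran from FTL (1072 and 1044) and FTH1 (616 and 656) through ISCU (69.3 and 71.1), TFRC (45.7 and 46.2) and IREB2 (26.3 and 26.5) to FDXR (11.9 and 11.2), STEAP3 (10.5 and 9.59), FDX1 (8.80 and 9.38), ACO1 (8.32 and 7.99) and SLC11A2 (7.57 and 7.78). No neighbours overlapped in that group. In WT cells under Nutlin-3a FDXR (323 and 321) took the third place ahead of ISCU (213 and 199), and TFRC (27.8 and 30.7), IREB2 (27.2 and 29.7) and STEAP3 (28.2 and 27.4) overlapped. In KO cells under DMSO FDXR (10.2 and 10.5) remained ahead of ACO1 (8.61 and 9.22) and SLC11A2 (8.86 and 8.81), which overlapped, then STEAP3 (6.56 and 7.23) and FDX1 (5.31 and 5.78). In KO cells under Nutlin-3a FDXR (220 and 210) again took the third place, ahead of ISCU (141 and 151), ACO1 (8.61 and 8.03) and SLC11A2 (8.47 and 8.16) overlapped, and FDX1 (5.54 and 6.18) was lowest.

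The counts of called genes are set beside the share of all tested genes called in the same direction. In the WT response 3 rose and 4 fell, where 29.4% of all tested genes rose and 29.2% fell. In the KO response 5 rose and 1 fell, against 18.1% and 20.6% of all genes. For KO against WT under DMSO 2 were higher and 4 lower, against 31.4% and 30.1%, and under Nutlin-3a 4 were higher and 4 lower, against 32.7% and 30.4%. For the KO response minus the WT response 2 were higher and 3 lower, against 14.2% and 13.4%. The median log2 values of the 10 genes in these 5 comparisons were 0.10, 0.13, -0.04, 0.11 and 0.12, beside 0.02, -0.01, 0.01, 0.02 and -0.0032 over all tested genes. The widest gap was that of the 5 rises in KO cells, and a set chosen as this one was gives no test of it. The comparisons share libraries in part, so their counts are not independent of each other.

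**Figure D3:**
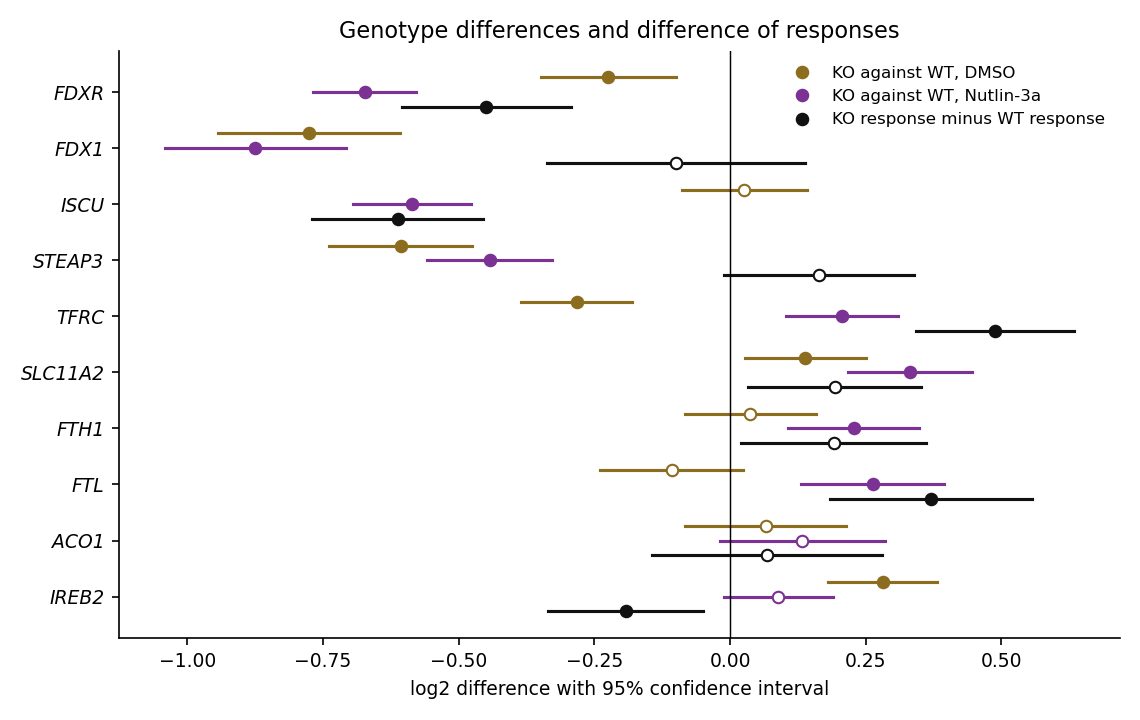
KO against WT under DMSO (brown) and under Nutlin-3a (purple) and the KO response minus the WT response (black), as log2 values with 95% confidence intervals, filled where the adjusted p was under 0.05. FDX1 and STEAP3 are low in KO cells in both treatments, TFRC changes sign from -0.28 to 0.21, and FDXR and ISCU have negative differences of responses, at -0.45 and -0.61.

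The genes whose log2 CPM, centred on its mean, lay closest to FDXR over the 8 libraries were GLS2, CDKN1A, MDM2, GDF15 and PLIN4, at Euclidean distances of 0.706, 1.06, 1.06, 1.08 and 1.14 among 12552 genes compared. For the other genes the closest were CCDC50 to FDX1 (0.179), TEAD3 to ISCU (0.200), ASCC3 to STEAP3 (0.219), PPRC1 to TFRC (0.0480), TSPAN3 to SLC11A2 (0.0605), ASB16-AS1 to FTH1 (0.133), CMTM7 to FTL (0.137), MESDC1 to ACO1 (0.0879) and JMJD7 to IREB2 (0.0663). Genes that change little lie close to many others, so these distances are a description only.

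Beyond the 10 genes, 87 other genes of iron metabolism were read from 5 lists, and 74 of them had enough reads to be tested. The 13 without, among them TF, FTMT, HFE, HAMP and ALAS2, had 0 to 15 reads in any library. In the WT response 15 of the 74 rose and 31 fell, with a median of -0.11, and in the KO response 12 rose and 15 fell, with a median of -0.05. As given above, the shares over all tested genes, which the counts of every list below should be read against, were 29.4% higher and 29.2% lower in the WT response and 18.1% and 20.6% in the KO response. Of the 25 genes of iron-sulfur cluster assembly, 3 rose and 11 fell in WT cells, and 1 rose and 5 fell in KO cells. Unlike ISCU, NDOR1, a reductase of cytosolic cluster assembly (log2 -0.71 in WT), and the mitochondrial glutaredoxin GLRX5 (-0.53 in WT, -0.41 in KO) fell, while FAM96B, of the cytosolic targeting complex, rose by 0.45 in WT cells. FDX1L, the second mitochondrial ferredoxin (also called FDX2), rose by 0.26 in KO cells and was at 0.09 in WT cells (adjusted p = 0.296). Under DMSO 13 of these 25 were lower in KO cells and 0 were higher, among them the chaperone HSPA9 (-0.39) and ISCA2 (-0.38). With edgeR the all-gene background of that comparison was 31.4% higher and 30.1% lower, as given above.

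Of the 18 tested genes of uptake, export and transport, 2 rose and 9 fell in the WT response, and 4 rose and 5 fell in the KO response, beside 29.4% and 29.2% of all genes in WT and 18.1% and 20.6% in KO cells. The iron exporter SLC40A1 rose by 0.92 in WT and 0.44 in KO cells, and the heme transporter SLC48A1 rose by 0.93 and 0.29. TFR2, the second transferrin receptor, fell by 1.33 in WT and 0.57 in KO cells, and the metal importer SLC39A8 fell by 1.30 and 0.54. For all 4 of these genes the KO change was the smaller one, with differences of responses of -0.48, -0.64, 0.76 and 0.76 in the same order, each past the threshold. These 4 were taken as the extremes of this list in the WT response and also in the difference of responses, so this pattern follows from their choice. Of the 18 tested genes the difference was higher in 4 and lower in 2, against 14.2% and 13.4% of all genes. Between genotypes the largest differences in this list were those of CP, the ferroxidase ceruloplasmin (4.66 under DMSO and 3.99 under Nutlin-3a), and of the mitochondrial iron importer SLC25A37 (-1.48 and -1.42). CP was at 0.137 to 0.182 RPKM in WT and 2.81 to 4.28 RPKM in KO libraries.

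Among the 13 tested genes of storage, sensing and its control, 5 rose and 5 fell in the WT response, and 3 rose and 3 fell in the KO response, against the same shares of all genes (29.4% and 29.2%, and 18.1% and 20.6%). EPAS1, a hypoxia-inducible factor whose own mRNA carries an iron-responsive element, rose by 2.85 in WT and 1.52 in KO cells. KO cells held less of it, with log2 differences of -2.19 under DMSO and -3.52 under Nutlin-3a. HMOX1, which releases iron from heme, rose more in KO than in WT cells (1.36 against 0.75, difference 0.61, adjusted p = 0.0266). NCOA4, the receptor that brings ferritin to lysosomes, rose by 0.69 in WT and 0.19 in KO cells, with a difference of -0.50. The iron-sulfur proteins CISD2 and CISD3 fell in both genotypes.

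Of the 12 tested genes of heme synthesis, 4 rose and 5 fell in WT cells, and 2 rose and 2 fell in KO cells, the latter near the 18.1% and 20.6% of all genes (29.4% and 29.2% in WT). The porphyrin transporter ABCB6 rose by 0.95 in WT and 0.54 in KO cells. Of the 6 tested enzymes that draw electrons from ferredoxin, 1 rose and 1 fell in WT cells, and 2 rose and 0 fell in KO cells. With edgeR, CYP27A1, a sterol hydroxylase, rose by 0.41 in WT (adjusted p = 0.0488) and by 0.49 in KO cells (adjusted p = 0.0393), at 0.954 to 2.01 RPKM.

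**Figure D4:**
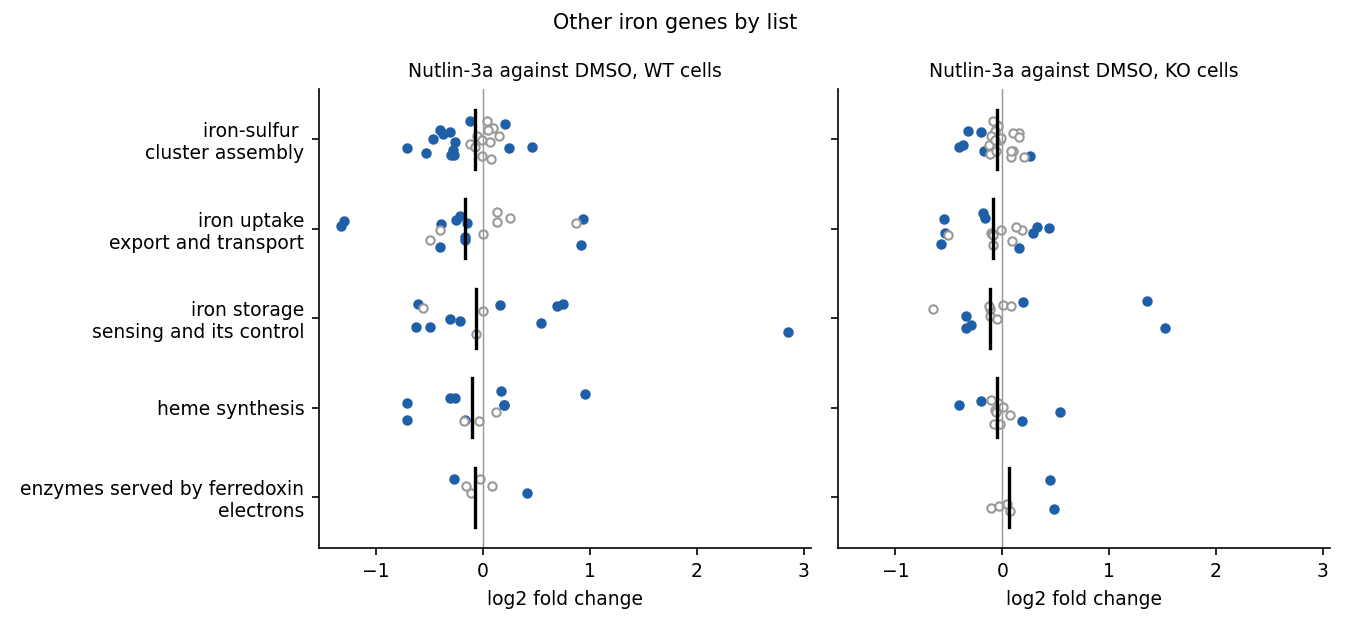
Log2 fold change of Nutlin-3a against DMSO for the 74 other iron genes by list, in WT (left) and KO (right) cells, with 1 point per gene, filled where the adjusted p was under 0.05, and a bar at the list's median. The point farthest right in both panels is EPAS1, at 2.85 in WT and 1.52 in KO cells.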

How the data were processed

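Groups and replicate numbers came from the sample titles. Per the submitters' processing notes, the build was GRCh37 (hg19) and the tools included HTSeq 0.8.0 and TopHat2 2.1.1. Per the labels, libraries were strand-specific and poly(A)-enriched. Which annotation and strand setting the counting used is not given in the sources used here. The authors deposited whole read counts per gene and RPKM values. For 12992 of 12992 genes with at least 20 reads in every library, both tables together gave a whole-number gene length within 0.001 bases.

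These counts went into 1 model of the 4 groups over 8 libraries (4 residual degrees of freedom) in edgeR 4.0.16 (R 4.3.3), after filterByExpr and TMM scaling (factors 0.969 to 1.04). The quasi-likelihood test was robust and two-sided, with 5 comparisons and a threshold of 0.05. The common biological coefficient of variation came to 0.0424. The p-values set each difference against the spread between replicates, estimated over the 4 groups with information shared across genes. They do not cover variation between KO populations, since the labels name a single one. Replicates differed by more than counting noise, with a chi-square per gene of 2.38 to 9.19. The test was also run on simulated counts drawn with the same fitted spread in every group. That run does not cover replicate noise that differs between groups, so nothing is concluded from it here. RPKM served to compare levels between genes.

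Alternatives were DESeq2 1.42.0 size factors and Wald test, upper-quartile factors, no filter, 4-library fits, limma-trend (limma 3.58.1) on log2(RPKM + 0.1) and log2(RPKM + 1), a threshold of 0.01, a replicate block, and libraries left out. The 10 genes and the lists were chosen with earlier results of these data known. From each list and comparison the text draws on the 2 called genes with the largest rise and the 2 with the largest fall whose mean log2 CPM was 1 or more, and gives those genes' values in other comparisons. Some genes that this takes are not reported here. No sequence was read on the files' build; sequences and coordinates are of GRCh38.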

Additional observations from a re-analysis of the deposited data

Results flagged for a closer look

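The response to Nutlin-3a differed between KO and WT cells, by the test of the difference itself, in 5 of the 10 genes. Of the 10, the difference was higher in 2 and lower in 3, beside 14.2% and 13.4% of all tested genes. The KO response minus the WT response was -0.45 for FDXR, -0.61 for ISCU, 0.49 for TFRC, 0.37 for FTL and -0.19 for IREB2, all on the log2 scale. FDXR and ISCU rose in both genotypes and rose less in KO cells, and TFRC fell in both and fell less in KO cells. FTL had responses of opposite sign, and neither response of IREB2 passed the test by itself with all 8 libraries. For FDXR, ISCU, TFRC and FTL the difference passed the threshold in each of 17 other settings, whereas for IREB2 it did so in 5 of 17.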

How the results depend on the processing

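For single genes, 855 of 940 alternative values kept their direction and their side of the threshold, 49 missed a threshold passed in the reported fit, 31 passed one that was missed and 5 changed sign. The 5 were near 0: FDX1 in the KO response (-0.028 without the 3 libraries that stood apart, -0.046 to 0.13 with 1 library left out), ISCU for KO against WT under DMSO (-0.0067 to 0.060 with 1 left out) and FTH1 there (-0.012 to 0.087). Of 376 counts of called genes, 333 stayed within 1.5 times. Shares of all tested genes called in these other settings are not given. Nor are counts of genes called without the 3 libraries together. There the spread rests on the KO DMSO pair alone, and each lone library is assumed to vary like that pair. In the WT response 2 of the 10 genes fell with limma-trend on log2(RPKM + 0.1) without a filter. At a threshold of 0.01 there were 2, and 2 to 4 fell with 1 library left out. In the KO response 0 of the 10 fell with limma-trend at either pseudocount or without a filter. In each of these 1 fell at an unadjusted p under 0.05, and 1 fell at the adjusted threshold with DESeq2's Wald test. With 1 library left out 0 to 3 fell. The 0 came without KO DMSO replicate 2 (1 at an unadjusted p under 0.05) or KO Nutlin-3a replicate 1 (1), and the 3 without WT Nutlin-3a replicate 2. Under DMSO 1 of the 10 was higher in KO cells with DESeq2's size factors, with its Wald test and at 0.01, and 1 to 2 with 1 library left out. Of the difference of responses 2 to 4 were higher with 1 left out, the 4 without WT Nutlin-3a replicate 1.

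For the 74 other iron genes, the KO response had 7 to 18 rises and 7 to 18 falls with 1 library left out (7 rises without KO Nutlin-3a replicate 2, 7 falls without KO Nutlin-3a replicate 1) and 9 falls with limma-trend without a filter. Under DMSO the reported fit had 16 higher and 29 lower in KO cells, beside 31.4% and 30.1% of all tested genes. In that comparison 18 were lower with limma-trend without a filter and 19 at a threshold of 0.01. Under Nutlin-3a the reported fit had 22 higher and 19 lower, beside 32.7% and 30.4% of all tested genes. With DESeq2's Wald test 14 were higher, and 12, 12 and 11 were lower with limma-trend at pseudocounts of 0.1 and 1 and without a filter. For the difference of responses the reported fit had 14 higher and 10 lower, beside 14.2% and 13.4% of all tested genes. There 9 were higher with DESeq2's Wald test, 6 at a threshold of 0.01 and 6 to 20 with 1 library left out. Lower were 5 with limma-trend without a filter, 5 at 0.01 and 5 to 11 with 1 left out. A stricter threshold calls fewer genes by construction, and the cause of the other shifts was not tested. Same-numbered replicates deviated together with correlations of -0.02 to 0.23 over 6 pairs of groups. The reported fit did not pair the samples by number, and whether same-numbered ones were prepared together was not tested. With a replicate block FDXR changed by 4.79 in WT and 4.34 in KO cells, the counts for the 10 genes were unchanged in the 5 comparisons, and those for other iron genes moved by at most 1. Other scalings moved the all-gene median by at most 0.04. Depth limits what can be said of genes with few reads, such as GRIN2C under DMSO.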
